A study of Mus musculus with 8 samples.

Results

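Expression of 9 genes was examined in mouse peritoneal macrophages given the compound C498, lipopolysaccharide (LPS), or C498 followed by LPS. The genes are 6 surface and secreted markers of alternative macrophage activation (Mrc1, Chil3, Retnla, Clec10a, Mgl2 and Cd163) and 3 lectin receptors that signal through the kinase Syk (Clec7a, Clec4e and Clec4d). They were taken by gene symbol from a table of 55801 genes, and each symbol occurred once. The table gives TPM values, each gene's share of the transcript pool corrected for transcript length, so that levels of different genes can be set side by side. A total of 12189 genes had a mean of at least 1 TPM over the 8 samples and were tested. Of the 9 genes, 7 were among them, while Mgl2 and Cd163 fell below that level and are described by their values.

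The macrophages were thioglycollate-elicited cells of male C57BL/6 mice aged 6 to 8 weeks. Cells received DMSO as vehicle (NC), LPS at 100 ng/ml for 4 h (LPS), C498 at 15 µM (C498), or 15 µM C498 for 0.5 h and then 100 ng/ml LPS for 4 h (C498+LPS), with 2 samples in each group. C498 is a small molecule that the study selected as an inhibitor of JAK/STAT and NFκB signaling, and LPS is the bacterial cell wall component sensed by TLR4. The sources used here do not say whether the 2 samples of a group came from separate mice or cultures, so the p-values measure the spread between these samples, which may be technical.

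Alternative activation is the state that macrophages enter under IL-4 and IL-13, which act through the transcription factor STAT6 and are known to induce Mrc1, Chil3 and Retnla in the mouse. C-type lectin receptors bind sugars and lipids of microbes and dead cells. Dectin-1, the product of Clec7a, carries its own Syk-binding motif, whereas Mincle (Clec4e) and MCL (Clec4d) signal through the Fc receptor gamma chain, and all of them pass the signal from Syk to the CARD9, BCL10 and MALT1 complex.

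The stretches just upstream of the start sites of the 4 genes that passed the test in at least 1 comparison below are shown first, so that the responses can be read beside the regulatory sequence. They come from the RefSeq promoter set on GRCm38.p6, which holds 8 of the 9 genes (Clec10a is not among them), and are written 5′ to 3′ on the strand of the gene. Capitals mark matches, on either strand, to the C/EBP motif TTNNGNAA and to the STAT6 motif, TTC and GAA with 4 bases between them. The intervals are chr6:123289872-123290121 (minus strand) for Clec4e, chr6:123261857-123262106 (plus strand) for Clec4d, chr6:129472780-129473029 (minus strand) for Clec7a and chr16:48842359-48842538 (plus strand) for Retnla, whose stretch of 180 bases ends before its start site at 48842551 in the GENCODE M21 annotation.
Clec4e: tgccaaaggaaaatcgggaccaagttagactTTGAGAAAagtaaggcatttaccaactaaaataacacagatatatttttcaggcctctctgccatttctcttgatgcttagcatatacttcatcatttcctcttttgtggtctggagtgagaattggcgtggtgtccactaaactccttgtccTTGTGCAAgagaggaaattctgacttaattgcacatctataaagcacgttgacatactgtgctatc
Clec4d: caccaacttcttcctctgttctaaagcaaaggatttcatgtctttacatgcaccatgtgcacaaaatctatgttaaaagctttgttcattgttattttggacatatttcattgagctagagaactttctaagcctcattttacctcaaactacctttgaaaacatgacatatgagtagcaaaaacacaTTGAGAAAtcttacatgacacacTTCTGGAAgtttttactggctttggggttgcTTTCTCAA
Clec7a: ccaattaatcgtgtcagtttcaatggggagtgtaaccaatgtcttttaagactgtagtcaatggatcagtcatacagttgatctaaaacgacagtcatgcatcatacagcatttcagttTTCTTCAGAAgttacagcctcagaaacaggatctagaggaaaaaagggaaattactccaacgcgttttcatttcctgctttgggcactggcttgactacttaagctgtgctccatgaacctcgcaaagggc
Retnla: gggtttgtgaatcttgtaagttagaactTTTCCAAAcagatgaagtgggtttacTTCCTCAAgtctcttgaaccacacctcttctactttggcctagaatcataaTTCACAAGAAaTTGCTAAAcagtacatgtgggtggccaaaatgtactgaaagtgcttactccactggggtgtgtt

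A C/EBP match lay in the 250 bases before the start of 7 of the 8 genes, all but Clec7a, against 36.8% of 32851 promoters. A STAT6 match lay in Retnla and Clec7a, against 5.85% of promoters, and in Retnla it was followed, after 1 base, by a C/EBP match. The NFκB motif GGNNTTTCC was found in Mrc1 alone (4.93% of promoters), and the general STAT motif TTCNNNGAA in Chil3 alone (7.02%). The PU.1 motif GAGGAA, a mark of myeloid promoters, was found in 6 of the 8 genes (23.3% of promoters). None of the 8 held the AP-1 motif TGANTCA (6.75%) or the CRE motif TGACGTCA (1.55%). These matches describe letters in a window and say nothing of binding in these cells.

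Clec4e and Clec4d are neighbors on chromosome 6. In the GENCODE M21 annotation of GRCm38, Clec4d spans 123262111 to 123275265 on the plus strand with 6 exons in its longest transcript, and Clec4e spans 123281789 to 123289870 on the minus strand, also with 6 exons. The genes point toward each other, and 6523 bases separate their 3′ ends. Clec7a lies farther along the same chromosome, at 129461591 to 129472779, and is filed there as a polymorphic pseudogene. Mgl2 and Clec10a are neighbors on chromosome 11, with 18646 bases between them. The transcripts of Clec10a and Mgl2 were identical at 96.7% of 704 aligned bases, and 91 of the 2233 windows of 100 bases in the Clec10a transcript recurred in Mgl2, so some reads could be assigned to either gene. Chil3 shared 78 of its 1440 windows with other genes, 54 of them with Chil4. No window of the other 6 genes recurred elsewhere in the annotation.

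Before the responses are given, the makeup of the samples is described, since RNA of a whole culture cannot tell fewer cells of a type from less RNA per cell. All 10 macrophage markers were expressed, and their summed level was 20303 to 20871 TPM in NC, 18228 to 18758 in LPS, 16108 to 16247 in C498 and 12559 to 14372 in C498+LPS. Lyz2 gave most of this sum (a mean of 15986 TPM in NC and 11497 in C498), and 8 of the 10 were lower in C498 than in NC, 2 of them at an adjusted p of 0.05 (15.5% of all tested genes passed it in either direction). Cd14 went the other way, from a mean of 244 TPM in NC to 675 in C498 (log2 change 1.47, limma adjusted p = 0.00012). It was the only macrophage marker to change 2-fold or more at that adjusted p there, against 7.00% of all tested genes. The 6 fibroblast markers summed to 150 to 192 TPM in NC and 176 to 200 in LPS, but to 633 to 750 in C498 and 618 to 911 in C498+LPS, and all 5 tested fibroblast genes were called higher in C498 than in NC. The 6 mesothelial markers moved the same way (5.03 to 6.50 TPM in NC, 5.46 to 6.51 in LPS, 17.4 to 24.4 in C498 and 17.8 to 29.4 in C498+LPS). The 8 monocyte markers summed to 276 to 300 TPM in NC, 299 to 355 in LPS, 115 to 128 in C498 and 102 to 129 in C498+LPS. The lower sum in C498 was that of Ly6c2 (a mean of 231 TPM in NC and 61.4 in C498), while of the 6 tested monocyte markers, Chil3 among them, 3 were higher and 3 lower in C498 than in NC. Each of these markers was above 0 in at least 1 sample. The part of these shifts in the C498 comparisons of the 9 genes was not tested. The median gene had a log2 change of -0.17 in LPS against NC and -0.18 in C498+LPS against C498, and of 0.014 and 0.0065 in the C498 comparisons without and with LPS.

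**Figure D1:**
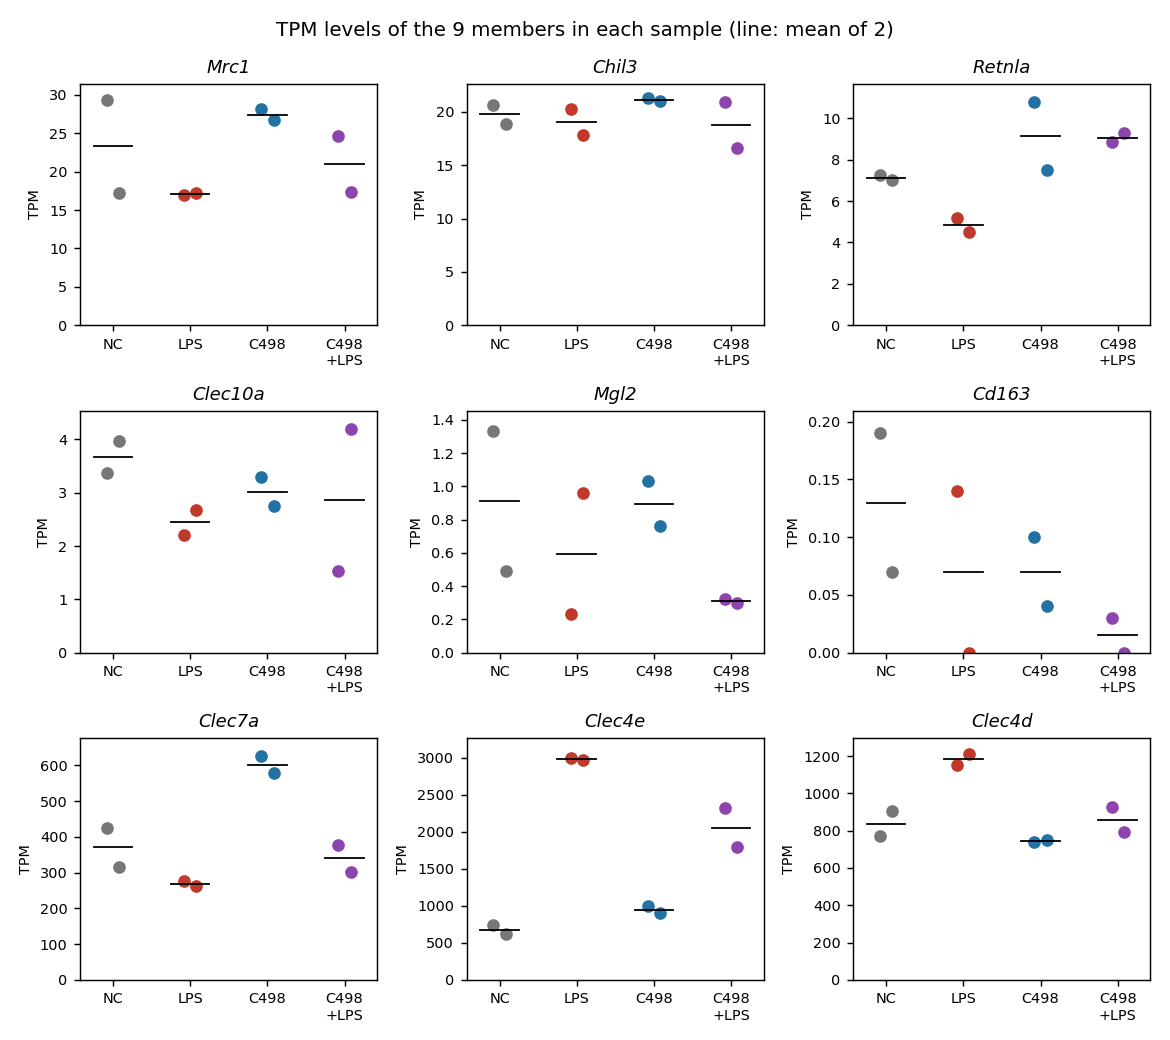
TPM of each of the 9 genes (vertical axes, starting at 0 and scaled per gene) in the 8 samples of the NC, LPS, C498 and C498+LPS groups; points are samples and lines are means of 2. Clec4e ranged from 622 TPM in NC to 2996 in LPS, while the 6 alternative activation markers stayed below 30 TPM in every sample.

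The 3 lectin receptors were abundant and the 6 alternative activation markers were scarce. Averaged over the 8 samples, Clec4e stood at 1667 TPM, Clec4d at 906 and Clec7a at 395, which placed them 83rd, 181st and 402nd among the 12189 tested genes. Mrc1 averaged 22.2 TPM and Chil3 19.7 TPM, whereas Retnla averaged 7.54, Clec10a 3.0, Mgl2 0.68 and Cd163 0.071 TPM. Summed within a sample, the 3 lectin receptors gave 1841 to 4442 TPM and the 6 markers 43.2 to 64.7 TPM.

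Clec4e encodes Mincle, the receptor for mycobacterial cord factor and for a nuclear protein released by dying cells. It stood at 735 and 622 TPM in NC, 2996 and 2969 in LPS, 997 and 898 in C498, and 2318 and 1799 in C498+LPS. The samples of the 4 groups did not overlap, in the order NC, C498, C498+LPS and LPS. Without C498, LPS raised Clec4e 4.41-fold on the log2(TPM + 1) scale (log2 change 2.14 ± 0.14 SE, limma adjusted p = 8.1e-05). In cells given C498, LPS raised it 2.16-fold (log2 change 1.11 ± 0.14 SE, limma adjusted p = 0.0032).

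Differentially expressed genes (DEGs) were those with an adjusted p of 0.05 or less that changed 2-fold or more. Clec4e was the only DEG of the 7 tested genes in LPS against NC, where 12.2% of all tested genes were DEGs, 5.55% upward and 6.68% downward. By the adjusted p alone 2 of the 7 passed, Clec4e and Clec4d, against 29.6% of all tested genes. Clec4e was also the only DEG of the 7 in C498+LPS against C498, where 5.64% of tested genes were DEGs, 2.52% upward and 3.13% downward. There 2 of the 7 passed the adjusted p alone, Clec4e upward and Clec7a downward, against 16.2%. The Clec4e call in this comparison lay close to the fold threshold: without C498+LPS replicate 1 the log2 change was 0.93 and none of the 7 was a DEG. Where a sample is left out here and below, its group keeps 1 sample, which the fit assumes to vary like the other groups.

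Under LPS, Clec4e was lower with C498 than without it. The log2 change was -0.55 ± 0.14 SE (1.46-fold lower, limma adjusted p = 0.037), short of the 2-fold threshold. The adjusted p did not stay below 0.05 without either LPS sample, without either C498 sample or without C498+LPS replicate 2 (0.079 to 0.188). In unstimulated cells Clec4e was 1.40-fold higher with C498 (log2 change 0.48, limma adjusted p = 0.058), which missed the threshold but passed it without NC replicate 1 or either C498+LPS sample (0.045 in each case). The difference between the LPS responses with and without C498 was -1.03 on the log2 scale (95% interval -1.49 to -0.57), with a limma adjusted p of 0.099 over all tested genes. None of the 7 genes passed this interaction test by limma, against 0.492% of all tested genes. Before adjustment the limma value of Clec4e was 0.0011, and 11.1% of all tested genes, but of the 7 only Clec4e, were under 0.05.

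Clec4d encodes MCL, which pairs with Mincle at the cell surface. Its level was 770 and 905 TPM in NC, 1154 and 1212 in LPS, 737 and 752 in C498, and 928 and 792 in C498+LPS. Both LPS samples lay above the other 6 samples, which among themselves ranged from 737 to 928 TPM. LPS raised Clec4d 1.42-fold without C498 (log2 change 0.50 ± 0.11 SE, limma adjusted p = 0.015). With C498 the LPS response was 0.20 on the log2 scale (limma adjusted p = 0.26). Under LPS, Clec4d was 1.38-fold lower with C498 (log2 change -0.46 ± 0.11 SE, limma adjusted p = 0.030). Its interaction term was -0.30 (95% interval -0.67 to 0.071, limma adjusted p = 0.55), so a difference between the LPS responses was not shown. The LPS response lost its adjusted p without NC replicate 1 or either LPS sample (0.051 to 0.093), and the C498 difference under LPS lost it without either LPS sample, either C498 sample or C498+LPS replicate 2 (0.073 to 0.169).

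The pair differed in their share within each sample. Clec4e was 0.95 and 0.69 times the Clec4d level in NC, and 1.35 and 1.19 times in C498. After LPS it was 2.60 and 2.45 times the Clec4d level without C498 and 2.50 and 2.27 times with it. The ratio was thus below 1 only in NC and above 2 in all 4 LPS-treated samples, whether or not C498 was present.

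Clec7a encodes Dectin-1, the receptor for fungal beta-glucan. It stood at 426 and 315 TPM in NC, 275 and 261 in LPS, 626 and 578 in C498, and 376 and 303 in C498+LPS. The 2 C498 samples were above all others and the 2 LPS samples below all others, while NC and C498+LPS overlapped. C498 alone raised Clec7a 1.64-fold (log2 change 0.72 ± 0.16 SE, limma adjusted p = 0.028). In cells given C498, LPS lowered it 1.78-fold (log2 change -0.83 ± 0.16 SE, limma adjusted p = 0.016). Without C498 the LPS change was -0.45 (limma adjusted p = 0.077, and 0.023 without NC replicate 2), and the interaction term was -0.39 (95% interval -0.92 to 0.15, limma adjusted p = 0.60), so the 2 responses were not shown to differ.

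Clec7a was the only one of the 7 tested genes to pass an adjusted p of 0.05 in C498 against NC, and none was called a DEG there (7.00% of all tested genes were DEGs, and 15.5% passed the adjusted p alone). Clec7a and Clec4e were the 2 of the 7 under 0.05 in limma before adjustment, against 32.0% of all tested genes. The adjusted p of Clec7a exceeded 0.05 without NC replicate 2, either LPS sample or either C498 sample (0.062 to 0.168). The fall after LPS in C498-treated cells exceeded it without either C498 sample or C498+LPS replicate 2 (0.094 to 0.120). Relative to Clec7a, Clec4e was 1.73 and 1.98 times as abundant in NC and 1.59 and 1.55 times in C498, but 10.9 and 11.4 times in LPS and 6.16 and 5.94 times in C498+LPS. The ratio was thus higher in all 4 LPS-treated samples than in the other 4.

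**Figure D2:**
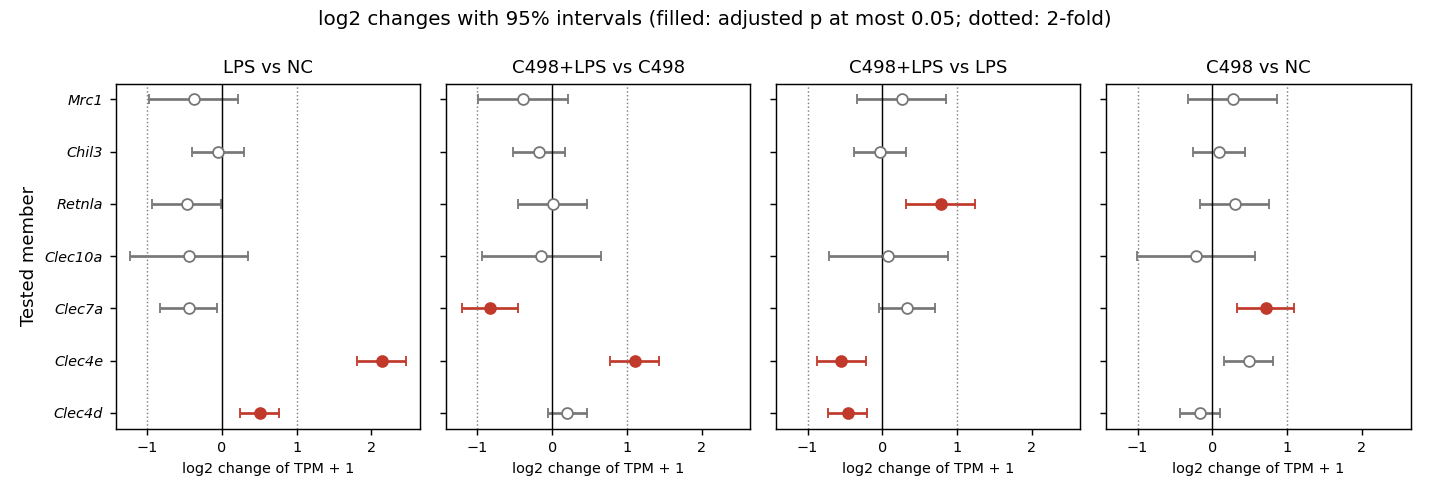
Log2 change of TPM + 1 (horizontal axes) of the 7 tested genes in 4 comparisons, with 95% confidence intervals of the limma fit; filled red points have an adjusted p of at most 0.05 and dotted lines mark a 2-fold change. Clec4e lies beyond 2-fold in both LPS comparisons (2.14 and 1.11), and the points of the 4 tested alternative activation markers lie within 2-fold in all 4 panels.

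Retnla encodes RELM-alpha, a secreted protein that is among the most strongly IL-4-induced products of mouse macrophages. It stood at 7.25 and 6.99 TPM in NC, 5.18 and 4.52 in LPS, 10.8 and 7.48 in C498, and 8.83 and 9.27 in C498+LPS. The 2 LPS samples were the lowest of the 8. Under LPS, Retnla was 1.72-fold higher with C498 (log2 change 0.78 ± 0.20 SE, limma adjusted p = 0.035), short of the 2-fold threshold. The LPS change was -0.48 without C498 (limma adjusted p = 0.11) and 0.0070 with it (limma adjusted p = 0.99), and the interaction term of 0.48 had a 95% interval of -0.17 to 1.13. The adjusted p of the C498 difference exceeded 0.05 without either LPS or either C498+LPS sample (0.115 to 0.190).

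In C498+LPS against LPS, 3 of the 7 tested genes passed an adjusted p of 0.05, Retnla upward and Clec4e and Clec4d downward, against 16.8% of all tested genes (9.08% upward and 7.70% downward). None of the 7 was a DEG, against 7.57% of all tested genes (5.39% upward and 2.18% downward). The same 3 genes were under 0.05 in limma before adjustment, against 31.2% of all tested genes. The samples of the 2 groups did not overlap for 5 of the 7 genes, against 62.8% of all tested genes.

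The other markers of alternative activation passed no test in any comparison of all 8 samples. Mrc1, which encodes the mannose receptor CD206, stood at 29.3 and 17.3 TPM in NC, 17.0 and 17.2 in LPS, 28.2 and 26.7 in C498, and 24.6 and 17.4 in C498+LPS. Its 2 NC samples covered nearly the whole range of the 8 samples. The Mrc1 change was -0.38 in LPS against NC (95% interval -0.98 to 0.22) and 0.27 in C498 against NC (95% interval -0.33 to 0.87), and both intervals include 0. Without NC replicate 2, with 1 NC sample left, the former was -0.74 (limma adjusted p = 0.045).

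Chil3 encodes the chitinase-like protein Ym1. It stood at 20.6 and 18.9 TPM in NC, 20.3 and 17.8 in LPS, 21.3 and 21.0 in C498, and 20.9 and 16.6 in C498+LPS. The groups other than C498 overlapped with one another, and the 4 log2 changes in the plotted comparisons lay between -0.17 and 0.094. The 95% interval for LPS against NC was -0.40 to 0.30, which lies within 2-fold in either direction.

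Clec10a and Mgl2 encode the 2 mouse macrophage galactose-type lectins, both known as CD301. Clec10a stood at 3.38 and 3.97 TPM in NC, 2.21 and 2.68 in LPS, 3.29 and 2.75 in C498, and 1.54 and 4.19 in C498+LPS. The lowest and the highest of the 8 values were thus the 2 C498+LPS samples. The Clec10a change in LPS against NC was -0.44 (95% interval -1.24 to 0.35, limma adjusted p = 0.37). Without C498+LPS replicate 2, which leaves 1 sample at 1.54 TPM, the Clec10a change in C498+LPS against NC was -0.88 (limma adjusted p = 0.048).

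Mgl2 stood at 1.33 and 0.49 TPM in NC, 0.23 and 0.96 in LPS, 1.03 and 0.76 in C498, and 0.32 and 0.30 in C498+LPS. Cd163, the receptor for hemoglobin and haptoglobin complexes, stood at 0.19 and 0.07 TPM in NC, 0.14 and 0 in LPS, 0.10 and 0.04 in C498, and 0.03 and 0 in C498+LPS. Cd163 was therefore listed at 0 in 2 of the 8 samples and near 0 in the rest. When genes of any level above 0 were tested, neither gene passed in any comparison, with the smallest limma adjusted p at 0.34 for Mgl2 and 0.30 for Cd163, both in C498+LPS against NC.

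Against NC, C498+LPS left Clec4e 3.02-fold higher (log2 change 1.59 ± 0.14 SE, limma adjusted p = 0.00023). It was the only one of the 7 genes called in this comparison, against 18.2% of all tested genes. The other 6 lay between -0.36 (Clec10a) and 0.31 (Retnla) on the log2 scale, with limma adjusted p of 0.24 or more. This comparison shares its NC samples with the LPS and the C498 comparisons.

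The Clec4e and Clec4d loci sit at one end of a cluster of C-type lectin genes. The 9 tested genes whose start lay within 500 kb of that of Clec4e were this pair, 4 other C-type lectin genes, and Foxj2, C3ar1 and Necap1, and all lay on the Clec4d side of Clec4e. Clec4n, which encodes Dectin-2, starts 60.0 kb from Clec4e and had a log2 change of -0.46 in LPS against NC (limma adjusted p = 0.041) and of -0.68 in C498 against NC (limma adjusted p = 0.019). Clec4a2, 183.4 kb away, changed by -0.97 (limma adjusted p = 0.0013) and -1.59 (limma adjusted p = 0.00035) in the same comparisons. Clec4a3, 337.4 kb away, changed by -1.0 and -1.19, and Clec4a1, 368.0 kb away, by 0.12 (limma adjusted p = 0.49) and -1.60. Of the 6 tested lectin genes of the stretch, Clec4d and Clec4e were thus those with a positive change in LPS against NC at an adjusted p of 0.05, and those without a negative one in C498 against NC at that level. These differences between genes were not tested. Clec4d was not a DEG, and its adjusted p in LPS against NC rests on single samples as given above.

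**Figure D3:**
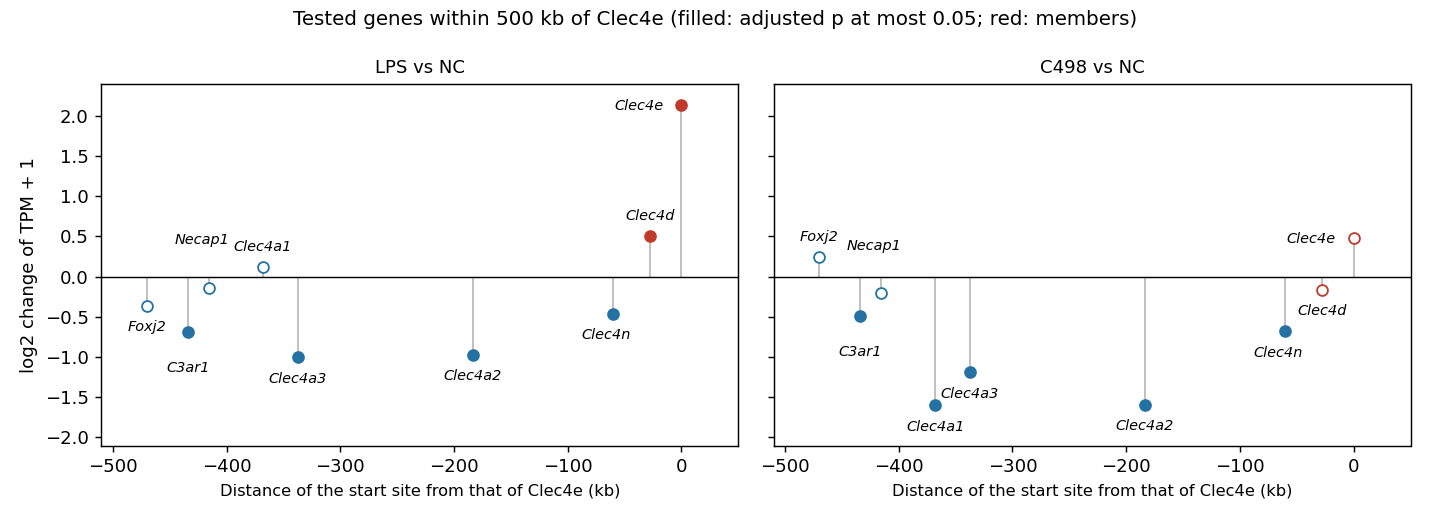
Log2 change of TPM + 1 (vertical axis) against the distance in kb of each start site from that of Clec4e, for the 9 tested genes within 500 kb, in LPS against NC (left) and C498 against NC (right); red points are Clec4d and Clec4e, and filled points have an adjusted p of at most 0.05. Clec4e (2.14) and Clec4d (0.50) are the filled points above 0 on the left, and 5 neighbors are filled below 0 on the right.

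Wider lists place these genes in their pathways. Of 29 other myeloid C-type lectin receptors 12 were tested, and their median log2 change was -0.11 in LPS against NC, -0.72 in C498 against NC and -0.79 in C498+LPS against LPS, beside -0.17, 0.014 and 0.0065 for all tested genes. In C498 against NC, 0 rose and 3 fell as DEGs (Clec4a1, Clec4a2 and Clec4a3), and 5.64% and 1.36% of all tested genes did. Under LPS, C498 raised 1 of them (Mrc2, log2 change 1.12) and lowered 5, among them Clec4a1 (-1.97), Clec5a (-1.61) and Clec4n (-1.06), against 5.39% and 2.18% of all tested genes. Mrc2 had a mean of 0.605 TPM in LPS and 2.50 in C498+LPS, and was in the tested set only through its level in the C498 groups. The fibroblast marker sum was higher in the same groups, and its part in the Mrc2 change was not tested. The count of DEGs was 6 in place of 3 without NC replicate 1 in the former comparison, and 3 in place of 6 without LPS replicate 2 or C498+LPS replicate 2 in the latter. In LPS against NC the scavenger receptor Olr1 rose (log2 change 2.04) while Clec2i (-1.90) and Clec4a3 (-1.0) fell, against 5.55% and 6.68% of all tested genes. Olr1 also rose in C498+LPS against C498 (2.25), as the only DEG of the list (5.64% of all tested genes). Beside the lower values of this list under C498 stood the lower macrophage marker sum and Ly6c2 level of the C498 groups given above. The fibroblast marker sum of these groups was higher. The neutrophil markers summed to 264 to 278 TPM in NC, 258 to 269 in LPS, 160 to 169 in C498 and 159 to 185 in C498+LPS. Mmp8 and S100a8 gave most of that sum (means of 109 and 102 TPM in NC). S100a9 and Ly6g, of the same list, were at 0 in every NC and LPS sample, so the sum does not show that neutrophils were present. The part of these shifts in the lectin receptor changes was not tested.

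All 20 genes of the Syk and CARD9 pathway downstream of these receptors were tested. In LPS against NC, Malt1, the paracaspase of the complex, went up to 228 TPM on average from 29.2 TPM (40.9 and 17.5 in the 2 NC samples). Its log2 change was 3.03 ± 0.37 SE (limma adjusted p = 0.0013). Card9, the adaptor of the complex, fell from 48.1 to 19.5 TPM (log2 change -1.25 ± 0.17 SE, limma adjusted p = 0.0021), and Rubcn (-1.03) and Vav1 (-1.01) also fell. These were the 4 DEGs of the 20, against 12.2% of all tested genes, and the count was 2 without LPS replicate 2. Card9 fell again in C498+LPS against C498 (-1.06) as the only DEG there (5.64% of all tested genes), a call lost without either C498 sample or C498+LPS replicate 2. Among the DEGs in C498+LPS against LPS (7.57% of all tested genes) were Ptpn6 (-1.28) and Pik3cd (-1.14), both lower with C498, and 16 of the 20 had a negative change (list median -0.37, beside 0.0065 for all tested genes). The macrophage, neutrophil and fibroblast marker sums given above stood beside this comparison, and their part was not tested. Malt1 (1.55) was the only DEG in C498 against NC (7.00% of all tested genes), a call lost without any 1 of the 6 LPS, C498 and C498+LPS samples. By the adjusted p alone 1 of the 20 was higher and 6 were lower there, against 15.5% of all tested genes in either direction, and the list median was -0.21 beside 0.014 for all tested genes. Syk itself rose from 137 to 254 TPM in LPS against NC (log2 change 0.90, limma adjusted p = 0.018) and was lower with C498 under LPS, at 146 TPM (log2 change -0.81, limma adjusted p = 0.040). Its log2 change was 0.0016 in C498 against NC and 0.088 in C498+LPS against C498 (limma adjusted p = 0.82).

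Of 25 other genes of the IL-4, IL-13 and STAT6 response 19 were tested. In C498 against NC 13 of the 19 had a positive change and 6 a negative one. By the adjusted p alone 10 were higher and 1 was lower, against 15.5% of all tested genes in either direction. Cd200r1 was among the lower genes, at a mean of 62.6 TPM in NC and 34.8 in C498. As DEGs 9 rose and 0 fell, against 5.64% and 1.36% of all tested genes, with a list median of 0.51. They included the histone demethylase Kdm6b, from 1.95 to 17.3 TPM (log2 change 2.64), the transcription factors Klf4 (2.58) and Egr2 (1.47), and the signaling brake Cish (1.42). This count was 4 without C498 replicate 1 and 5 with every sample centred on its median gene. In LPS against NC 6 rose, led by Socs1 (2.60), Il1rn (2.13) and Ccl22 (2.07), and 3 fell, led by Pparg (-1.94), against 5.55% and 6.68% of all tested genes. Under LPS, 6 were higher with C498, among them Kdm6b (2.33), Egr2 (1.51) and Klf4 (1.39), and 1 was lower, Alox15 (-1.86), against 5.39% and 2.18% of all tested genes, with 4 DEGs in all without C498+LPS replicate 2. The higher fibroblast and mesothelial marker sums of the C498 groups stood beside both C498 comparisons of this list, and their part was not tested. With C498 present, 4 rose and 5 fell after LPS (2.52% and 3.13% of all tested genes), among them Ccl22 (2.05), Cish (1.57), Egr2 (-1.75) and Cd200r1 (-1.34). Many genes of this list respond to signals other than IL-4, and the 4 tested markers named at the outset had medians of 0.18 in C498 against NC and 0.17 in C498+LPS against LPS, with 0 DEGs in both.

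**Figure D4:**
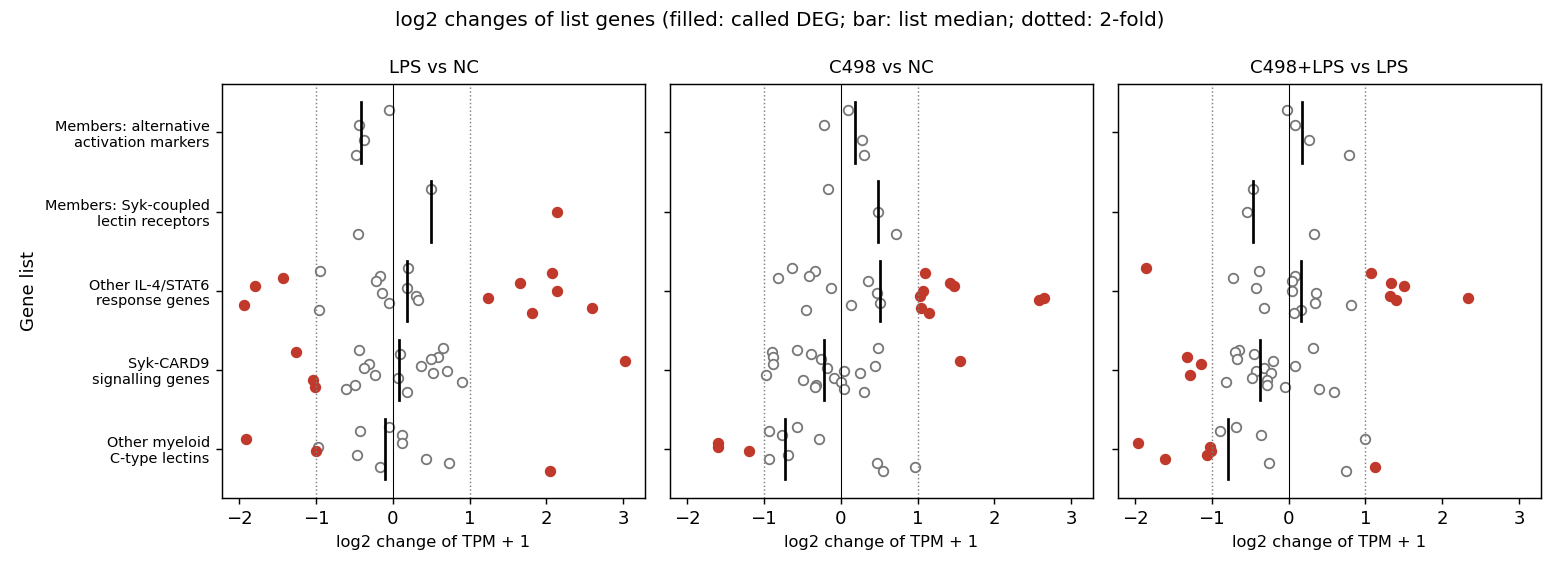
Log2 change of TPM + 1 (horizontal axes) of the tested genes of 5 lists in LPS against NC, C498 against NC and C498+LPS against LPS; filled red points are DEGs, black bars are list medians and dotted lines mark a 2-fold change. In C498 against NC 9 of the 19 IL-4 and STAT6 response genes are DEGs to the right, whereas none of the 7 genes in the upper 2 lists is.

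The genes whose levels followed each receptor most closely over the 8 samples were found by Pearson's r of log2(TPM + 1), as a description across samples that share treatments. For Clec4e they were Car13 (r = 0.993), Gbp3 (0.993) and Fnbp1l (0.992), and for Clec4d Nfkbil1 (0.990), Prdx5 (0.984) and Uba7 (0.982). For Clec7a they were Wfs1 (0.993), Rgl1 (0.992) and Cyth1 (0.988). Among the markers, the closest were Cdc45 for Retnla (0.980), Zscan20 for Chil3 (0.937) and Zscan12 for Clec10a (0.919). Clec4e had 210 tested genes with r above 0.95 and Clec7a had 73, while Chil3 and Clec10a had 0.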

How the data were processed

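RNA of 8 samples of mouse peritoneal macrophages, 2 in each of 4 groups, was sequenced by the authors as paired-end libraries. Per the study's methods, reads were filtered with fastp, aligned with HISAT2, assembled with StringTie and quantified with RSEM, and the authors deposited TPM per gene. The genome build and the tool versions are not given in the sources used here. The table also holds the authors' group means and transcript lengths. The means were not used. TPM keeps no read depth. Depth is therefore unknown here, and no counting interval is given. Between 17528 and 18975 genes were above 0 in a sample, and replicates correlated at r = 0.962 to 0.981 over tested genes.

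The members and gene lists were chosen with earlier results of these data known. Log2(TPM + 1) of 12189 genes with a mean of at least 1 TPM was fitted with limma 3.58.1 in R 4.3.3, with a mean per group over all 8 samples and a variance trend. The study's own test used a count model, which TPM cannot enter. P-values were adjusted by Benjamini-Hochberg over all tested genes. Genes were called when they changed 2-fold or more with an adjusted p of 0.05 or less, as in the study. With 2 samples against 2, an exact permutation test cannot go below p = 0.33, so none was run. The text names the 9 members and the 3 genes most correlated with each tested member. It also names up to 4 called genes of each list with the largest change per comparison. Chosen after their values were seen were Syk, the tested genes within 500 kb of Clec4e, and markers that carry, go against or are absent from a marker sum. These markers are Lyz2, Cd14, Ly6c2, Mmp8, S100a8, S100a9, Ly6g, Ccr7, Zbtb46, Ciita and Serpinb2. Some genes that these rules name are not reported here. The script was tested on simulated data, where it missed part of the planted changes, more of them at 2-fold than at the larger size, so a gene that was not called may still have changed. The recovery that the test required was lowered after its result was seen.

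All 9 identifiers were found in GENCODE M21 (GRCm38). Promoters came from RefSeq, and motifs were searched in the 250 bases before each start with Python 3.11.15. Transcripts were aligned with Biopython 1.88 in place of proteins, which were not analysed here. Alternatives were a pseudocount of 0.1, other filters, median centring, quantile normalization, fits of the compared groups alone, no variance trend, a replicate block, no fold threshold, and leaving out each sample.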

Additional observations from a re-analysis of the deposited data

How the results depend on the processing

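Of 659 alternative values for the 7 tested genes, 572 kept their direction and their side of the adjusted p threshold of 0.05. Of the others, 39 kept their direction but no longer met that threshold, 11 kept it and came to meet the threshold, and 37 changed sign. The fold threshold played no part in this tally, and each sign change was in a value that did not pass the test. The rise of Clec4e with LPS kept its adjusted p under every alternative, at a log2 change of 2.02 to 2.31 without C498 and of 0.93 to 1.32 with it. Leaving out a sample leaves its group with 1, whose spread is then taken from the other groups. Depth is unknown for TPM, and the levels of Mgl2, Cd163 and Clec10a leave little to test.

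With no fold threshold, the count of the 7 genes called was 2 in LPS against NC, 2 in C498+LPS against C498, 3 in C498+LPS against LPS and 1 in C498 against NC. In C498+LPS against C498 it was 0 after quantile normalization, and 0 to 1 with 1 sample left out, the 0 being without C498+LPS replicate 1. The replicate block gave 1 call in the interaction, Clec4e (log2 -1.03, limma adjusted p = 0.027), and passed Clec7a in LPS against NC (0.018) and Clec4e in C498 against NC (0.018). The deviations of same-numbered samples correlated at 0.040 to 0.168, with 3 of 6 group pairs under 0.1, so the numbers were not taken to pair the samples.

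Changing the scaling turned some signs. In LPS against NC, Chil3 was 0.12 after median centring and 0.10 after quantile normalization. The same values in C498+LPS against C498 were 0.041 and 0.0077 for Chil3, and 0.071 and 0.011 for Clec10a. Clec10a was -0.16 in C498+LPS against LPS after quantile normalization, and in C498 against NC Chil3 was -0.028 after centring. Chil3 was 0.013 and 0.028 in C498+LPS against NC, and Clec4d -0.074 after quantile normalization. Mrc1 was 0.035 and 0.018 in the interaction.

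With 1 sample left out, the log2 changes that turned sign ranged as follows. In LPS against NC, Chil3 lay between -0.14 and 0.038. Retnla lay, in C498+LPS against C498, between -0.23 and 0.24 and Clec10a between -0.66 and 0.37. Chil3 lay, in C498+LPS against LPS, between -0.18 and 0.13 and Clec10a between -0.44 and 0.59. In C498 against NC, Mrc1 lay between -0.094 and 0.64. In C498+LPS against NC, Mrc1 lay between -0.48 and 0.25, Clec7a between -0.33 and 0.10, Clec4d between -0.078 and 0.15, Clec10a between -0.88 and 0.15, and Chil3 between -0.24 and 0.078. In the interaction, Mrc1 lay between -0.38 and 0.36, Chil3 between -0.28 and 0.036, and Clec10a between -0.22 and 0.81. The cause was not tested.

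Without the filter on low values the adjusted p was 0.078 for Retnla, 0.105 for Clec4e and 0.080 for Clec4d in C498+LPS against LPS, 0.074 for Clec7a in C498 against NC and 0.052 for Clec7a in C498+LPS against C498. With only the groups compared, Clec4d in LPS against NC was at 0.062, Clec7a in C498 against NC at 0.102, and Clec4e and Clec4d in C498+LPS against LPS at 0.0895 and 0.063. With no variance trend the latter pair was at 0.081 and 0.079, and Clec7a in C498 against NC at 0.055. In C498+LPS against LPS, median centring put Clec4d at 0.094 and quantile normalization put Retnla at 0.053. Quantile normalization passed Clec7a in LPS against NC (0.032) and Clec4e in C498 against NC (0.047).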

Other observations

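The marker lists not yet given moved as follows. Of the 11 neutrophil markers, whose sum is given with the lectin receptors, 2 were at 0 throughout. The 11 dendritic cell markers summed to 12.5 to 17.0 TPM in NC, 19.0 to 21.0 in LPS, 35.5 to 40.9 in C498 and 50.8 to 119 in C498+LPS. Ccr7 gave most of this sum (46.8 and 112 TPM in the 2 C498+LPS samples). Only 3 of the 11 were tested, and 2 of them, Ccr7 and Zbtb46, were DEGs upward in C498+LPS against NC (18.2% of all tested genes were DEGs). Zbtb46 went from a mean of 0.60 TPM in NC to 2.8 in C498+LPS, and was under 1 TPM in every NC and LPS sample. Ciita, the third, stood at a mean of 2.24 TPM in NC and 0.66 in C498+LPS. The 12 markers of large peritoneal macrophages summed to 125 to 137, 389 to 390, 325 to 341 and 554 to 679 TPM in the same order, but the higher sums were those of Serpinb2 (a mean of 57.4 TPM in NC, 323 in LPS and 574 in C498+LPS). Of the 7 tested markers of this list, 5 had a lower mean log2 level in C498+LPS than in NC. Eosinophil markers summed to at most 2.53 TPM in any sample, with 2 of 7 at 0 throughout, and T and NK cell markers to at most 5.53 TPM. Mast cell markers summed to at most 22.9, B cell markers to at most 14.1 and endothelial markers to at most 35.4 TPM.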
